A study of Mus musculus with 6 samples.

Results

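The core replication-dependent histone genes encode the H2A, H2B, H3 and H4 proteins that package new DNA. They were taken here as every row of the deposited table whose gene symbol starts with Hist1h to Hist4h followed by 2a, 2b, 3 or 4. This gave 64 genes, listed as 70 transcripts, of 41254 gene symbols and 100144 transcripts in all. By class they were 20 H2A, 19 H2B, 12 H3 and 13 H4 genes. By gene cluster they were 50 Hist1 genes on chromosome 13, 10 Hist2 genes on chromosome 3, 3 Hist3 genes on chromosome 11 and the single Hist4 gene on chromosome 6. One Hist3 member, Hist3h2bb-ps, is named as a pseudogene. No member lay at a locus that the authors' software failed to estimate.

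DNA replication needs histones in step with new DNA, and these genes are transcribed mainly in S phase. Their mRNAs lack introns and, in most cases, a poly(A) tail. They end instead in a short stem-loop that is bound by the protein SLBP and cut with the help of the U7 small nuclear ribonucleoprotein, and they are degraded when replication stops. In the thymus, DN3a cells are immature T cell precursors without CD4 and CD8 that rearrange the T cell receptor beta locus before proliferating.

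RNA of DN3a thymocytes from adult C57BL/6 mice was measured in 3 wild-type libraries and 3 libraries of the genotype labelled Tg_Cd2_GATA3, whose name gives a transgene with Cd2 and the transcription factor GATA3. The sources do not spell out what the Cd2 part drives, nor in which cells. The study's title asks how GATA3 abundance bears on allelic exclusion of the receptor beta chain. The RNA was total RNA depleted of ribosomal RNA, so RNA without a poly(A) tail was kept. No label tells whether samples came from separate animals or from pools, so p-values measure only how far these samples spread. Libraries held 39022281 to 46985605 fragments. Wild-type replicate 1 and transgenic replicate 3 held Y-linked RNA (18522 and 16840 fragments), of which the other 4 libraries had 16 to 26 fragments, so each group held 1 library with Y-linked RNA and 2 nearly without it. In bulk RNA, fewer cells in S phase and less histone RNA per cell cannot be told apart.

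Gata3 itself stood at 49.1, 38.2 and 43.5 CPM (fragments as a rate of the TMM-scaled library total) in wild-type replicates 1 to 3 and at 58.6, 53.6 and 61.6 CPM in transgenic replicates 1 to 3. The groups did not overlap, with the transgenic values higher, but Gata3 was not called (log2 fold change 0.41, standard error 0.10, edgeR quasi-likelihood test, adjusted p = 0.17). Among 15 fixed markers of the DN3a stage, all were detected, among them Il2ra (328 to 397 CPM) and Rag1 (1728 to 2007 CPM). Of these markers 10 lay above 0 and 5 below, and 0 were called. Notch3, Notch1 and Bcl11b were higher without overlap, with log2 fold changes of 0.31, 0.19 and 0.26, and Il2ra was lower without overlap, with -0.17. Of the later thymocyte markers, 9 of 12 lay below 0 on the log2 scale, and their summed CPM ranged from 1027 to 1275 in wild type and, in transgenic libraries, from 1159 to 1305. Among them Cd4 had 6.90, 6.76 and 7.0 CPM in wild type and 4.86, 3.30 and 2.97 CPM in transgenic libraries. Cd8a had 6.90, 6.82 and 10.8 CPM against 5.53, 2.78 and 1.37 CPM. In the other direction, Ccr9 had a log2 fold change of 0.47 without overlap, and Cd27 and Arpp21 had 0.16 and 0.10 with overlap. The part of such cells, or of a shift among DN3a markers, in the histone results was not tested. Summed B cell markers ranged over 148 to 172 CPM (wild type) and 134 to 151 CPM (transgenic). The same pair of ranges was 21.1 to 25.2 and 25.1 to 27.6 CPM for myeloid cells, 245 to 313 and 206 to 298 CPM for NK cells and ILC, 1.27 to 4.83 and 3.33 to 7.55 CPM for erythroid cells, and 185 to 209.1 and 198 to 229.5 CPM for stroma. Pax5, S100a8, Ncr1, Eomes and Pdgfra had 0 fragments in all 6 libraries.

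Histone RNA was lower in the transgenic libraries in all 4 classes. All members together held 1.09%, 1.34% and 1.34% of the fragments in wild-type replicates 1 to 3 and 0.850%, 0.998% and 0.690% in transgenic replicates 1 to 3. On the normalised scale their sums were 10897, 13529.7 and 13509.8 CPM in wild type and 8508, 9929.6 and 6802 CPM in transgenic libraries. All 3 transgenic sums lay under all 3 wild-type sums, transgenic replicate 3 was the lowest, and wild-type replicate 1 was the wild-type library nearest to the transgenic ones. Wild type averaged 12646 ± 1514 CPM (SD, n = 3) and the transgenic group 8413 ± 1566 CPM (SD, n = 3), a difference of -0.60 on the log2 scale or 33.9% less. Between the libraries with Y-linked RNA, wild-type replicate 1 and transgenic replicate 3, the transgenic level was 0.624 of the wild-type level. Between the means of the libraries without it the ratio was 0.682. With 1 library a group on one side of that split, the first ratio has no spread.

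Histone H4, which sits with H3 at the centre of the nucleosome, was the most abundant class. Its sum had the largest log2 difference of the 4 classes over all 6 libraries, but without the libraries with Y-linked RNA H3 had -0.66 and H4 -0.62. Its sum was 4383, 5291 and 5089 CPM in wild type and 3189, 3578 and 2466 CPM in transgenic replicates, and the groups did not overlap. The wild-type mean was 4921 ± 477 CPM (SD, n = 3) and the transgenic mean 3078 ± 565 CPM (SD, n = 3), a log2 difference of -0.69. H2B, which pairs with H2A on the outside of that core, summed to 3076, 3545 and 3894 CPM in wild type and to 2577, 2779.7 and 1811 CPM in transgenic libraries. Again the groups did not overlap, and the log2 difference was -0.57.

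For H3 the sums were 2138, 2917 and 2833 CPM in wild type and 1492, 2213 and 1631 CPM in transgenic libraries, with a log2 difference of -0.57. Transgenic replicate 2 lay above wild-type replicate 1, so the H3 groups overlapped. For H2A the sums were 1300.1, 1776 and 1694 CPM against 1251, 1359 and 894 CPM, with a log2 difference of -0.45, which was -0.27 without transgenic replicate 3. Here too transgenic replicate 2 lay above wild-type replicate 1. A two-sided exact permutation test of 3 against 3 libraries cannot give a p below 0.1, so no sum or ratio of sums could pass 0.05, and sums are given as values.

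FPKM values, which divide by transcript length, gave the same direction with no overlap in any class. The H4 sums were 14295, 14913 and 17232 FPKM in wild type and 10208, 10041 and 7952 FPKM in transgenic libraries. For H2A they were 3451, 4156 and 5172 FPKM against 3188, 3291 and 2401 FPKM. The H3 sums were 4880.0, 5887 and 6951 FPKM against 3379, 4444 and 3695 FPKM. The authors' FPKM values imply a length that is shorter than the listed one for small transcripts and that varied between libraries. For Hist1h4d, listed at 393 bases, fragments and FPKM imply 242, 296 and 244 bases in wild-type replicates 1 to 3 and 256, 296 and 254 bases in transgenic replicates 1 to 3. Replicate 2 of each group thus had the longest implied length and the lowest FPKM per fragment for histones.

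**Figure D1:**
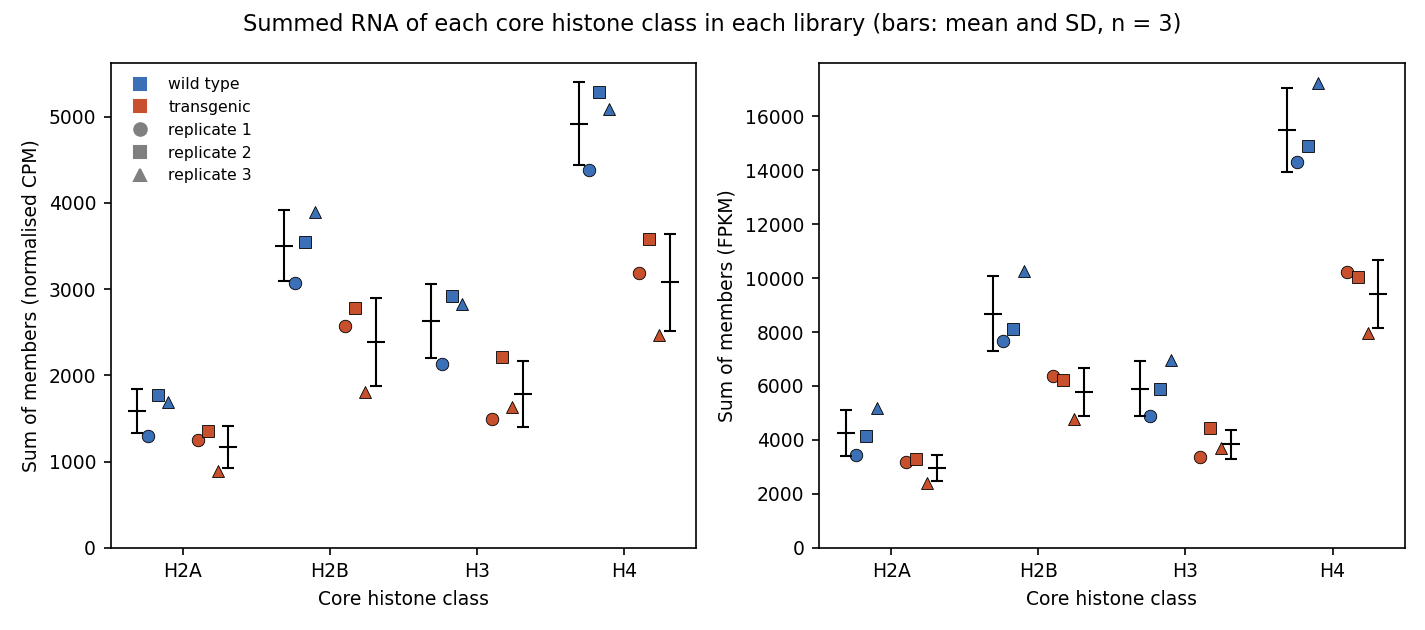
Summed RNA of the H2A, H2B, H3 and H4 members (x axis) in each library, as normalised CPM (left y axis) and as FPKM (right y axis), with circles, squares and triangles for replicates 1, 2 and 3 and bars for the mean and SD of 3 libraries. The wild-type H4 points span 4383 to 5291 CPM, the transgenic ones 2466 to 3578 CPM, and the H2A and H3 groups overlap on the CPM scale but not on the FPKM scale.

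The makeup of the histone pool by class was close in both groups. H4 took 45.3% ± 1.85 (SD, n = 3) of the members' FPKM in wild type and 42.7% ± 1.19 (SD, n = 3) in transgenic libraries. H2B took 25.3% ± 0.666 and 26.3% ± 1.15, H3 took 17.2% ± 0.910 and 17.6% ± 2.65, and H2A took 12.3% ± 0.855 and 13.4% ± 0.569 (SD, n = 3 in each group). The groups overlapped in each of these 4 shares. Among the 6 ratios of one class to another on the CPM scale, 5 overlapped between the groups. The exception was H4 over H2A, at 3.37, 2.98 and 3.004 in wild type and 2.55, 2.63 and 2.76 in transgenic libraries.

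By cluster, Hist1, the large cluster on chromosome 13, held 91.1% ± 0.466 (SD, n = 3) of the members' FPKM in wild type and 89.7% ± 0.616 (SD, n = 3) in transgenic libraries. Its sums were 9434, 11677 and 11868 CPM in wild type and 7227, 8589 and 5735 CPM in transgenic libraries, without overlap and with a log2 difference of -0.63. Hist2 summed to 897, 1105 and 1134 CPM against 824, 849.6 and 661 CPM, also without overlap, with a log2 difference of -0.43. Hist3 stood at 356, 407 and 292 CPM against 307, 252.5 and 242 CPM, and Hist4h4 at 211, 341 and 216 CPM against 149, 239 and 164 CPM, and both overlapped. The Hist4h4 difference was -0.47 on the log2 scale and -0.24 without wild-type replicate 2. The ratio of Hist1 to Hist2 was 10.5, 10.6 and 10.5 in wild type and 8.77, 10.1 and 8.68 in transgenic libraries, so it did not overlap either. Within Hist1, the 22 tested genes of the block that starts the cluster on the chromosome had a median log2 fold change of -0.53, and the 24 tested genes of the block that follows it had -0.59.

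Gene by gene, 60 of the 64 members passed the filter on low counts. The 4 that did not pass were Hist1h2aa and Hist2h3c1, at 0 fragments in all libraries, and Hist1h2aj and Hist1h2ba, at no more than 0.237 and 0.332 CPM. Hist1h2aa and Hist1h2ba are known mainly from the testis. Of the tested members, 55 lay below 0 on the log2 scale, while 49.8% of all 14653 tested genes did. Their median log2 fold change was -0.54, beside 0.00 over all genes.

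No member passed the threshold in edgeR's quasi-likelihood test, where the share of genes called lower was 0% and of genes called higher 0.0136%. An unadjusted p under 0.05 was reached by 43 members in the lower direction and 0 in the higher one, while 7.7% and 5.71% of all tested genes reached it. DESeq2 called 16 members lower and 0 higher, against 3.47% of all genes called lower. Without overlap between the groups, all transgenic values were under all wild-type values for 30 members, against 10.1% of all tested genes, and the reverse held for 0 members, against 8.73%. On the FPKM scale 35 members had all transgenic values under all wild-type values, against 7.34%. With no filter on low counts 17 members were called lower, against 0.485%, and with the replicate number as a block 3, against 0.0546%.

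The number of members called depended on the libraries with Y-linked RNA. With a covariate for Y-linked RNA, edgeR called 25 members lower and 0 higher, against 1.4% of all genes called lower. Without those 2 libraries it called 26 lower and 0 higher, against 1.32%. Without wild-type replicate 1 alone it called 21 lower, against 2.32%, and leaving out any other single library gave 0 or 1. Wild-type replicate 1 had the lowest wild-type value in 45 of the 60 tested members, and transgenic replicate 3 had the lowest value of all 6 libraries in 43 of them.

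**Figure D2:**
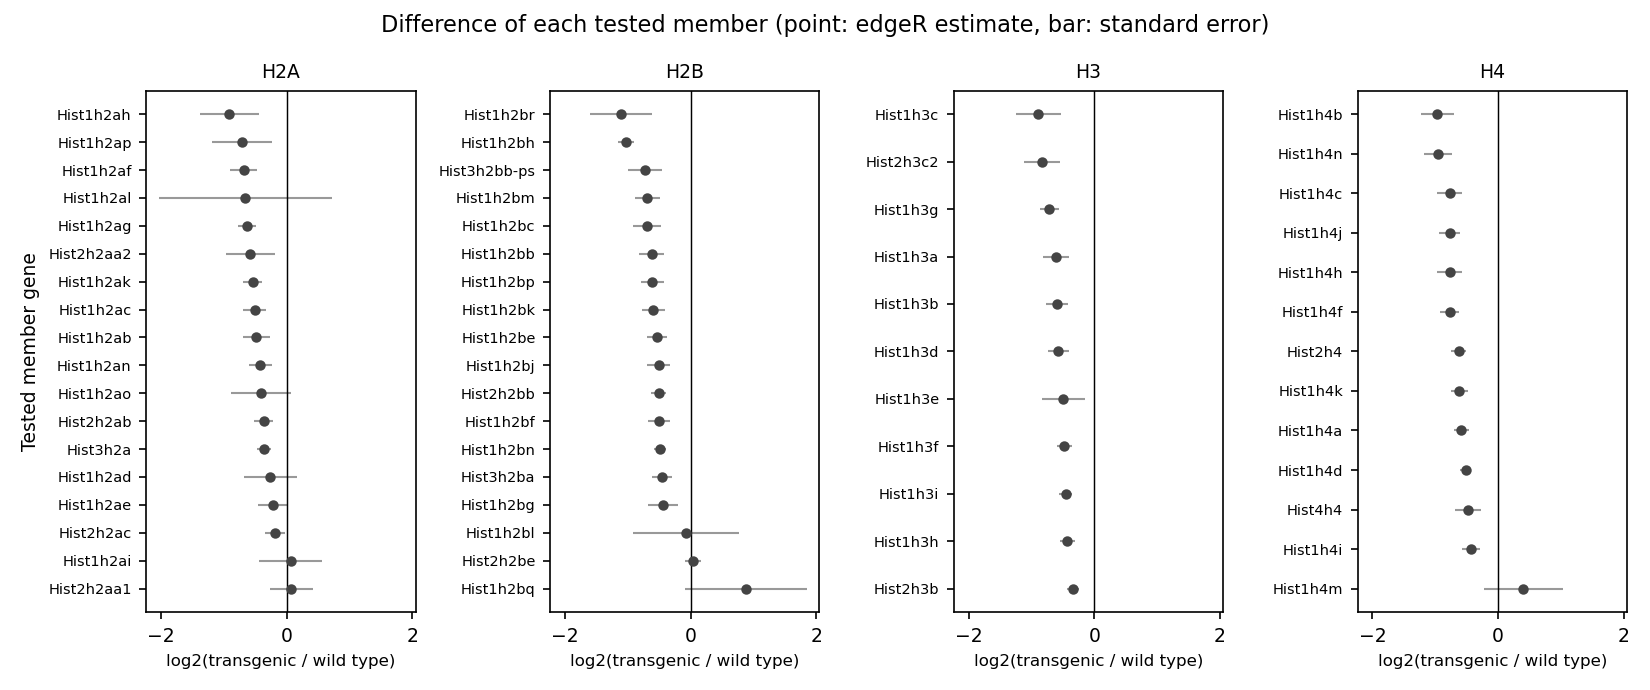
Log2 ratio of transgenic to wild-type level (x axis) of each of the 60 tested members (y axis), in 1 panel per class, as points with standard errors from edgeR. In the H3 panel all 11 points lie below 0, and the 5 points above 0 elsewhere are Hist1h2ai, Hist2h2aa1, Hist2h2be, Hist1h2bq and Hist1h4m.

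Among the H4 genes, all of which encode the same core protein, 12 of 13 lay below 0, 12 had an unadjusted p under 0.05 and 11 did not overlap. Their median was -0.63. Over all tested genes, 7.7% were lower at that p and 10.1% were lower without overlap, shares that also apply to the classes below. Hist1h4d, the member with the highest FPKM of all (mean 2664), stood at 812, 888 and 935 CPM in wild type and 631, 679 and 529 CPM in transgenic libraries. The groups did not overlap, with a log2 fold change of -0.52 (standard error 0.09, edgeR, adjusted p = 0.148). Hist1h4f stood at 669, 795 and 774 CPM against 519, 473 and 323 CPM, with a log2 fold change of -0.77 (standard error 0.15, edgeR, adjusted p = 0.159).

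Hist1h4c, of near-equal abundance, stood at 702, 866 and 861 CPM against 620.1, 487 and 314 CPM, with transgenic replicate 3 far under the others. The genes Hist1h4d, Hist1h4c and Hist1h4f together gave 26.0% of the FPKM of all members, and the 10 most abundant members gave 51.9%. Hist2h4, the H4 gene of the Hist2 cluster, was the steadiest in wild type, at 135, 138 and 136 CPM, and stood at 99.0, 98.2 and 68.0 CPM in transgenic libraries (log2 fold change -0.63, standard error 0.12, edgeR, adjusted p = 0.159). Hist4h4, whose values stand above as the Hist4 cluster, had a log2 fold change of -0.48 (standard error 0.21) and overlapping groups. Hist1h4m is described with the members above 0.

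The stem-loop that ends these mRNAs separates H4 from the other classes, and 1 sequence of each kind is shown for that reason. A stem of 6 bases around a loop of 4, with both arms of the stem fully paired, was found in the annotated transcripts (GENCODE M21, GRCm38, the mm10 coordinates) of 40 members, from 25 to 58 bases past the coding part. Capitals mark the 16 bases of the stem-loop, with 5 bases on each side.
Hist1h4d (chr13:23581945-23581970, plus strand): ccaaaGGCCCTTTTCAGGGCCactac
Hist1h4a (chr13:23760795-23760820, minus strand): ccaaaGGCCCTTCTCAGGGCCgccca
Hist2h4 (chr3:96262934-96262959, minus strand): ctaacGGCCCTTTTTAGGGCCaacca
Hist1h4b (chr13:23757361-23757386, plus strand): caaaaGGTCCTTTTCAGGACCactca
Hist1h2bh (chr13:23542923-23542948, minus strand): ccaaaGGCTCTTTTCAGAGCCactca
Hist1h3f (chr13:23544927-23544952, plus strand): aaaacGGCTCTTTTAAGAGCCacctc
Hist1h3g (chr13:23535884-23535909, plus strand): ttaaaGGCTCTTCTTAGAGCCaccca
Hist2h2ac (chr3:96220413-96220438, minus strand): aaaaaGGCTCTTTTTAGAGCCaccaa
All 12 H4 stem-loops have C at both the fourth and the fifth base of the stem, and all 28 of the other classes have TC there. The form of Hist1h4d was found in 7 members with a median log2 fold change of -0.77, and that of Hist1h4b also in Hist1h4j, with -0.97 and -0.77. The form of Hist1h2bh was the commonest, in 21 members, of which 20 were tested and 20 lay below 0, with a median of -0.52. The form of Hist1h3f was found in 5 members with a median of -0.59. The 21 tested members in which no fully paired stem-loop was found had a median of -0.49, with 17 below 0. This does not mean that their mRNAs lack one. Some are annotated only as short transcripts, such as 312 bases for Hist1h4k and 381 for Hist1h2bn, and a stem-loop past that end would not be seen. Hist2h2aa1 and Hist2h2aa2 are among the 21 but were not matched to GENCODE M21, so they were not searched.

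In H3, 11 of 11 tested genes lay below 0, 10 had an unadjusted p under 0.05 and 8 did not overlap, with a median of -0.57. Hist1h3f stood at 516, 658 and 643 CPM in wild type and 459, 479 and 368 CPM in transgenic libraries, without overlap (log2 fold change -0.48, standard error 0.11, edgeR, adjusted p = 0.159). Hist1h3g stood at 74.3, 99.9 and 102 CPM against 66.7, 56.4 and 45.0 CPM, also without overlap. Its log2 fold change was -0.72 (standard error 0.15, edgeR, adjusted p = 0.159).

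Hist1h3i had the narrowest transgenic spread of these, at 91.7, 124 and 115 CPM in wild type and 83.4, 83.7 and 74.4 CPM in transgenic libraries (log2 fold change -0.45, standard error 0.10). Hist1h3c and Hist1h3a, both among the 3 H3 genes with the highest FPKM, overlapped between the groups. Hist1h3c stood at 264, 434 and 447 CPM against 98.0, 322 and 198 CPM, and Hist1h3a at 211, 331 and 339 CPM against 151, 254 and 174 CPM. In both, replicate 1 was the lowest library of its group. Of the Hist2 genes for H3, Hist2h3b stood at 119, 136 and 158 CPM against 110.4, 117 and 98.5 CPM (log2 fold change -0.34, standard error 0.10, edgeR, adjusted p = 0.2), the smallest difference in the class. Hist2h3c2 stood much lower, at 2.54, 3.44 and 4.72 CPM against 1.87, 2.17 and 1.96 CPM. Hist2h3b and Hist2h3c2 share a run of 399 identical bases, so the division of fragments between them is uncertain.

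In H2B, 16 of 18 tested genes lay below 0, 13 had an unadjusted p under 0.05 and 8 did not overlap, with a median of -0.52. Hist1h2bh was the member nearest the threshold. It stood at 91.1, 108 and 113 CPM in wild type and 62.1, 46.7 and 45.0 CPM in transgenic libraries. Even the highest transgenic value lay well under the lowest wild-type value, with a log2 fold change of -1.02 (standard error 0.13, edgeR, adjusted p = 0.0715), which is 50.7% less. Over 20 alternative fits its adjusted p ran from 6.61e-14 to 0.404, and 9 of them called it lower. In the authors' deposited table its group FPKM was 341 in wild type and 167 in transgenic cells (log2 ratio -1.02, q = 0.0218). Other members shared this q, the smallest among the members there.

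The most abundant H2B gene, Hist2h2bb, stood at 448, 594 and 602 CPM against 378, 439 and 341 CPM, without overlap (log2 fold change -0.51, standard error 0.12, edgeR, adjusted p = 0.159). Hist1h2bb stood at 383, 519 and 523 CPM against 318, 394 and 215 CPM, where transgenic replicate 2 lay above wild-type replicate 1. Hist1h2bm stood at 236, 273 and 293 CPM against 200.04, 191 and 106 CPM, and Hist1h2bn at 221, 238 and 253 CPM against 175, 188 and 145 CPM. Neither overlapped, and Hist1h2bn had the smaller standard error (log2 fold change -0.49, standard error 0.09, edgeR, adjusted p = 0.159). In the Hist3 cluster, Hist3h2ba stood at 43.7, 53.1 and 36.3 CPM against 39.3, 29.2 and 28.2 CPM, and Hist3h2bb-ps at 28.5, 28.4 and 16.1 CPM against 20.8, 11.2 and 12.2 CPM, and both overlapped. Their log2 fold changes were -0.46 and -0.72.

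H2A had the median nearest to 0, with 16 of 18 tested genes below 0, 8 at an unadjusted p under 0.05, 3 without overlap and a median of -0.45. Hist1h2ab, the highest of the class in FPKM though not in CPM, stood at 213, 292 and 247 CPM in wild type and 216, 210.2 and 113 CPM in transgenic libraries, and only transgenic replicate 3 lay clearly under wild-type replicate 1. Hist1h2ak stood at 169, 159 and 213 CPM against 102, 154 and 115 CPM, without overlap (log2 fold change -0.54, standard error 0.15, edgeR, adjusted p = 0.192). Hist1h2ag stood at 79.7, 98.5 and 101 CPM against 63.6, 70.2 and 46.3 CPM, also without overlap (log2 fold change -0.63, standard error 0.15, edgeR, adjusted p = 0.159).

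Among the H2A genes outside Hist1, Hist2h2ac stood at 154, 195 and 184 CPM against 196, 157 and 116 CPM, so that transgenic replicate 1 was the highest library of all, and its log2 fold change was -0.19 (standard error 0.16). Hist3h2a stood at 283, 325 and 239 CPM against 247, 212 and 202 CPM, overlapping, with a log2 fold change of -0.36 (standard error 0.11, edgeR, adjusted p = 0.216). Hist2h2ab stood at 14.9, 16.6 and 21.8 CPM against 14.9, 14.0 and 12.3 CPM, and Hist2h2aa2 at 2.65, 4.58 and 5.58 CPM against 3.98, 3.14 and 1.45 CPM. Wild-type and transgenic replicate 1 of Hist2h2ab differed only beyond the printed digits.

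**Figure D3:**
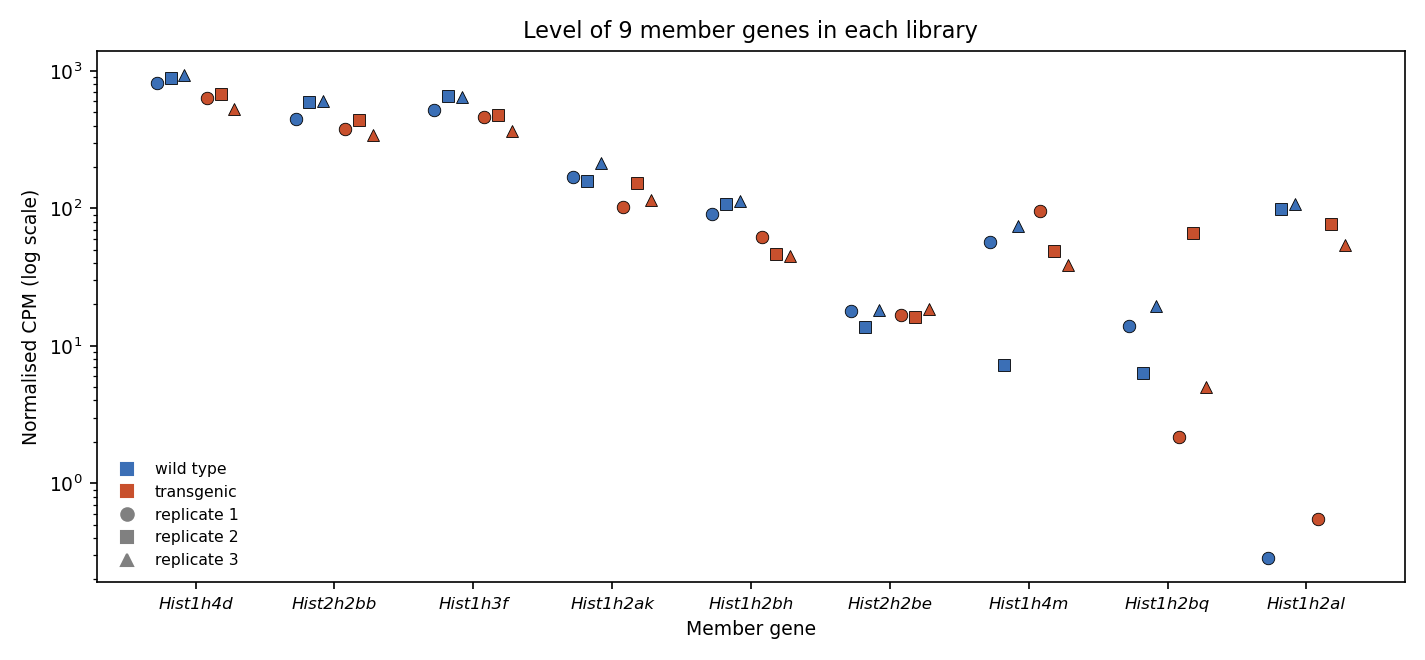
Normalised CPM (y axis, log scale) of 9 members (x axis), 1 point per library and a colour per group, with circles, squares and triangles for replicates 1, 2 and 3. From Hist1h4d to Hist1h2bh the transgenic points lie under the wild-type points, Hist2h2be overlaps, and Hist1h4m, Hist1h2bq and Hist1h2al are set by single libraries.

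Of the 5 members above 0, Hist2h2be alone had steady values, at 17.97, 13.7 and 18.2 CPM in wild type and 16.7, 16.1 and 18.4 CPM in transgenic libraries (log2 fold change 0.04, standard error 0.13). It is listed as a transcript of 2620 bases, the second longest among the members. Hist2h2aa1 was rare and overlapped, at 1.64, 4.28 and 3.21 CPM against 3.86, 3.09 and 2.67 CPM. Hist1h2ai stood at 5.46, 34.5 and 25.6 CPM against 27.6, 25.8 and 15.2 CPM, and without wild-type replicate 1, the low library, its log2 fold change went from 0.07 to -0.39.

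Hist1h4m stood at 56.7, 7.23 and 74.6 CPM against 95.1, 49.0 and 38.8 CPM, with wild-type replicate 2 at 12.8% of the next lowest wild-type library. It shares 366 identical bases with Hist1h4n, which stood at 115, 229 and 157 CPM against 70.4, 104 and 83.3 CPM and was highest in that same library. Hist1h2bq stood at 14.0, 6.35 and 19.4 CPM against 2.18, 66.3 and 4.98 CPM, and shares 1603 identical bases with Hist1h2br. Its position above 0 came from transgenic replicate 2, and without that library its log2 fold change was -1.89 in place of 0.88. The authors' deposited table marked this transcript significant and higher (log2 ratio 0.92, q = 0.0218).

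The authors' deposited table marked 37 of 67 tested member transcripts significant and lower, while 0.178% of all transcripts tested there were. They were 8 of 19 H2A, 11 of 24 H2B, 7 of 11 H3 and 11 of 13 H4 transcripts. The Hist1h2bq transcript was the 1 marked higher, against 0.072% of all transcripts. For Hist1h4d the authors' deposited table gave a log2 ratio of -0.55 with q = 0.0218. Every member transcript marked significant had this same q, the smallest among the members, so it does not rank them.

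Other members also had libraries far from the rest. Hist1h2al, an H2A gene placed apart from the cluster on chromosome 13, had 0.285, 99.7 and 108 CPM in wild type and 0.551, 76.5 and 54.2 CPM in transgenic libraries. Replicate 1 of each group was near 0 while the other 4 libraries were not, with 13 and 23 fragments beside 2132 to 4856. Hist1h2bl stood at 8.59, 72.0 and 14.7 CPM against 18.8, 65.3 and 6.40 CPM, high in replicate 2 of each group. Transgenic replicate 1 stood at 149 CPM for Hist1h3e, against 417 to 600.2 CPM in the other 5 libraries, and at 283 CPM for Hist1h4h, against 382 to 791 CPM. Whether the reads or their division among copies set these values was not tested.

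**Figure D4:**
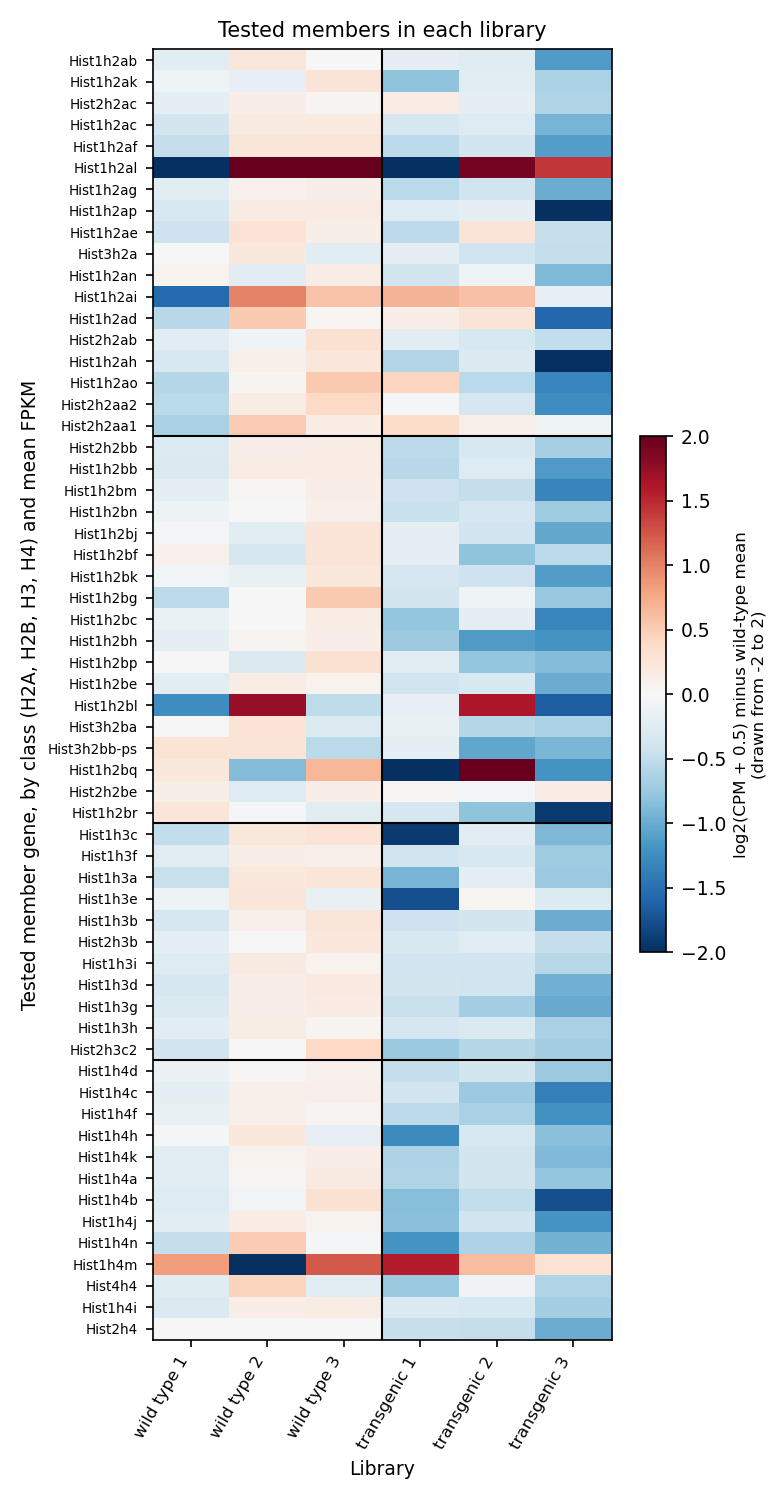
Colour shows log2(CPM + 0.5) of each of the 60 tested members (rows, by class and by mean FPKM) in each library (columns), minus the mean of the 3 wild-type libraries and drawn from -2 to 2. Most rows turn blue in the 3 transgenic columns and are darkest in transgenic replicate 3, while rows such as Hist1h2bq and Hist1h4m follow single libraries. Hist1h2al is low in replicate 1 of each group and Hist1h2bl is high in replicate 2 of each group.

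Near-identical copies make the division of fragments uncertain, so the members were split by shared sequence. Of 58 tested members found in GENCODE M21, 52 shared a run of at least 100 identical bases with another member. The other 6 were Hist1h4d, Hist2h2bb, Hist2h2be, Hist2h4, Hist3h2a and Hist4h4, of which 5 lay below 0 and 5 had an unadjusted p under 0.05. Their median log2 fold change was -0.49, beside -0.58 for the 52. Their spread within groups was smaller, with a median SD of 0.20 on the log2 CPM scale, beside 0.35.

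Some members are listed with long transcripts. The 9 tested members with a listed transcript of 1000 bases or more had a median log2 fold change of -0.51, with 7 below 0, beside -0.57 for the 51 others. For Hist2h2bb the short transcript of 381 bases stood at 1185, 1565 and 1743 FPKM in wild type and 1041, 1136 and 972 FPKM in transgenic libraries. Its long transcript of 1511 bases stood at 71.9, 84.3 and 85.6 FPKM against 52.6, 63.1 and 51.4 FPKM. The groups overlapped for neither form. In the authors' deposited table their log2 fold changes were -0.51 and -0.53, with q = 0.154 and q = 0.998. The 2 main transcripts of Hist1h2be, of 2433 and 2408 bases, stood at 95.2, 104 and 107 FPKM against 83.1, 90.2 and 45.5 FPKM, and at 89.1, 140.4 and 120.0 FPKM against 79.5, 91.5 and 65.8 FPKM. Transgenic replicate 2 of the latter lay above wild-type replicate 1.

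Promoters of members that were lower together are shown because their elements differ by class. RefSeq windows (GRCm38.p6) from 250 bases before to 50 after the start were found for 53 members. The 160 bases before the start are printed for 4 of them, with capitals marking the CCAAT box, the TATA box motif TATAAA and the octamer ATTTGCAT on either strand.
Hist1h4d (chr13:23581408-23581567, plus strand): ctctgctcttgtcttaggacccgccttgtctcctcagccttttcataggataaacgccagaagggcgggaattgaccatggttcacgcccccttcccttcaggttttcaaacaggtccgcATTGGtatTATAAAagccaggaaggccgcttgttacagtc
Hist1h3g (chr13:23535258-23535417, plus strand): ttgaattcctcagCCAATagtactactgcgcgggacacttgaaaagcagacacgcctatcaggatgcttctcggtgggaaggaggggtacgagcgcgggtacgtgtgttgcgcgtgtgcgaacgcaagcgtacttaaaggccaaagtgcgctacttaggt
Hist1h2bh (chr13:23543445-23543604, minus strand): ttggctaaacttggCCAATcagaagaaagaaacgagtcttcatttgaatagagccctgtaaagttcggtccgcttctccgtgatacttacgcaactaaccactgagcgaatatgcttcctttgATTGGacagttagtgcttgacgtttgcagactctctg
Hist1h2bk (chr13:22035661-22035820, plus strand): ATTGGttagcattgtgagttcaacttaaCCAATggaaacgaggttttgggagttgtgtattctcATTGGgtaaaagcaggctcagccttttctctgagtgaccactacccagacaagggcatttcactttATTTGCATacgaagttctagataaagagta
CCAAT was present in 15 of 15 H2A, 16 of 16 H2B and 10 of 10 H3 windows, in 3 of 12 H4 windows and in 37.9% of all 27025 RefSeq windows. The octamer was present in 7 H2A and 6 H2B windows and in 0 H3 and 0 H4 windows, against 1.75% of all windows. TATAAA was present in 56.6% of the members' windows and in 14.2% of all windows. The 11 tested members with an octamer had a median log2 fold change of -0.51, with 11 below 0, and the 39 tested members without one had -0.54, with 36 below 0. A match is a run of letters only, and binding was not measured.

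In 9 cases the RefSeq windows of an H2A and an H2B gene on opposite strands overlapped, by 220 to 279 bases. A motif in the overlapping bases was counted for both classes above, so the H2A and H2B motif counts are not independent. In 8 of these 9 cases both genes were tested. Other head-to-head neighbours without overlapping windows in that table were not counted, among them Hist2h2ac with Hist2h2be, at log2 fold changes of -0.19 and 0.04. Of the 8 counted pairs, 6 had both partners below 0. Hist1h2ah and Hist1h2bk had log2 fold changes of -0.91 and -0.59, Hist1h2ag and Hist1h2bj had -0.63 and -0.51, and Hist1h2ak and Hist1h2bn had -0.54 and -0.49. The exceptions among the 8 were Hist1h2ai with Hist1h2bl, at 0.07 and -0.07, and Hist1h2ao with Hist1h2bq, at -0.41 and 0.88.

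By median, the genes that make, protect and deposit histones lay nearer to 0 than the histones themselves. Of 40 genes of this histone supply list, 40 were tested, 31 lay below 0 and 0 were called. At an unadjusted p under 0.05 17 were lower and 1 higher, against 7.7% and 5.71% of all tested genes. The median of the list was -0.12. Hinfp was the 1 gene higher at that p (log2 fold change 0.29, standard error 0.11). It stood at 39.3, 30.1 and 38.6 CPM in wild type and 41.3, 46.1 and 45.0 CPM in transgenic libraries, without overlap. Slbp, which binds the stem-loop, stood at 201, 219.9 and 229 CPM in wild type and 181, 206 and 178 CPM in transgenic libraries, overlapping, with a log2 fold change of -0.21 (standard error 0.07, edgeR, adjusted p = 0.271). Npat, the coactivator of histone gene transcription, stood at 78.9, 81.4 and 81.2 CPM against 71.4, 77.5 and 80.6 CPM (log2 fold change -0.07, standard error 0.06). Casp8ap2, a partner of NPAT in histone locus bodies, had a log2 fold change of -0.04, and the U7 particle genes Lsm10 and Lsm11 had -0.15 and 0.13. Zfp473, a zinc finger protein of the same processing step, stood at 4.91, 4.67 and 5.14 CPM against 3.79, 3.35 and 2.85 CPM, without overlap.

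Among the histone chaperones of the list, values ran from below 0 to near 0. Chaf1a, the large subunit of the assembly factor CAF-1, stood at 103, 109 and 102 CPM in wild type and 82.8, 87.5 and 88.8 CPM in transgenic libraries, without overlap (log2 fold change -0.28, standard error 0.06, edgeR, adjusted p = 0.159). Asf1b, which hands H3 and H4 to CAF-1, stood at 49.0, 52.8 and 62.2 CPM against 34.0, 44.8 and 39.4 CPM, also without overlap (log2 fold change -0.47, standard error 0.12, edgeR, adjusted p = 0.177). Nasp, which keeps a reserve of H3 and H4, had -0.32, and Asf1a and Chaf1b, which is also in the S phase list, had -0.31 and -0.18. Among the other genes of the list with the smallest p, Supt16, Hat1, Nap1l1 and Mms22l had log2 fold changes from -0.22 to -0.21. Other chaperone and deposition genes lay near 0, with Hira at -0.04, Daxx at -0.07, Nap1l4 at -0.08, Atrx at 0.01, Ipo4 at 0.03, Cabin1 at 0.03 and Ubn1 at 0.06. Hat1 acetylates new H4, and Supt16 is a subunit of the FACT chaperone.

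Linker histone genes and genes of the dividing cell lay lower with the core histones. Of 8 linker histone H1 genes, 8 lay below 0, 5 of them at an unadjusted p under 0.05, with a median of -0.47. Hist1h1a stood at 719, 967 and 956 CPM in wild type and 614, 685 and 558 CPM in transgenic libraries (log2 fold change -0.51, standard error 0.11), and Hist1h1e had -0.42. Of 24 S phase genes, 23 lay below 0 and 21 had an unadjusted p under 0.05 in the lower direction, with a median of -0.30, and Cdc45 and Rrm2, needed for replication forks and for deoxynucleotides, had -0.49 and -0.53. Of 20 genes of G2 and mitosis, 20 lay below 0 at an unadjusted p under 0.05, with a median of -0.48, and Ccnb2 and Bub1b had -0.50 and -0.47. None of the genes in these 3 lists was called by edgeR over all genes. Of all tested genes, 7.7% were lower at an unadjusted p under 0.05.

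The core histone variant genes listed as replication-independent had a median nearer to 0, though not every one of them lay near 0. Of 9 such genes 7 lay below 0, with a median of -0.11. At an unadjusted p under 0.05 3 were lower, against 7.7% of all tested genes. H2afx, the variant phosphorylated at DNA breaks, stood at 315, 376 and 385 CPM in wild type and 262, 291 and 238 CPM in transgenic libraries (log2 fold change -0.44, standard error 0.09), and H2afz had -0.31. Cenpa had -0.45 (standard error 0.16), without overlap.

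The ratio of the core histone sum to these lists, computed within each library and chosen after seeing the data, sets them side by side. Core histones over S phase genes gave 1.66, 1.84 and 1.82 in wild type and 1.45, 1.58 and 1.15 in transgenic libraries, without overlap. Core histones over genes of G2 and mitosis gave 2.88, 2.79 and 2.72 against 2.55, 2.83 and 2.36, where transgenic replicate 2 lay within the wild-type range. Core histones over linker histones gave 4.19, 3.99 and 4.05 against 3.66, 3.87 and 3.42, without overlap. Over the variants the ratio was 4.23, 4.94 and 4.80 against 3.37, 3.94 and 2.83, and over the supply list 1.59, 1.86 and 1.85 against 1.30, 1.48 and 1.04, both without overlap. The part of cell cycle composition in the histone result was not tested.

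**Figure D5:**
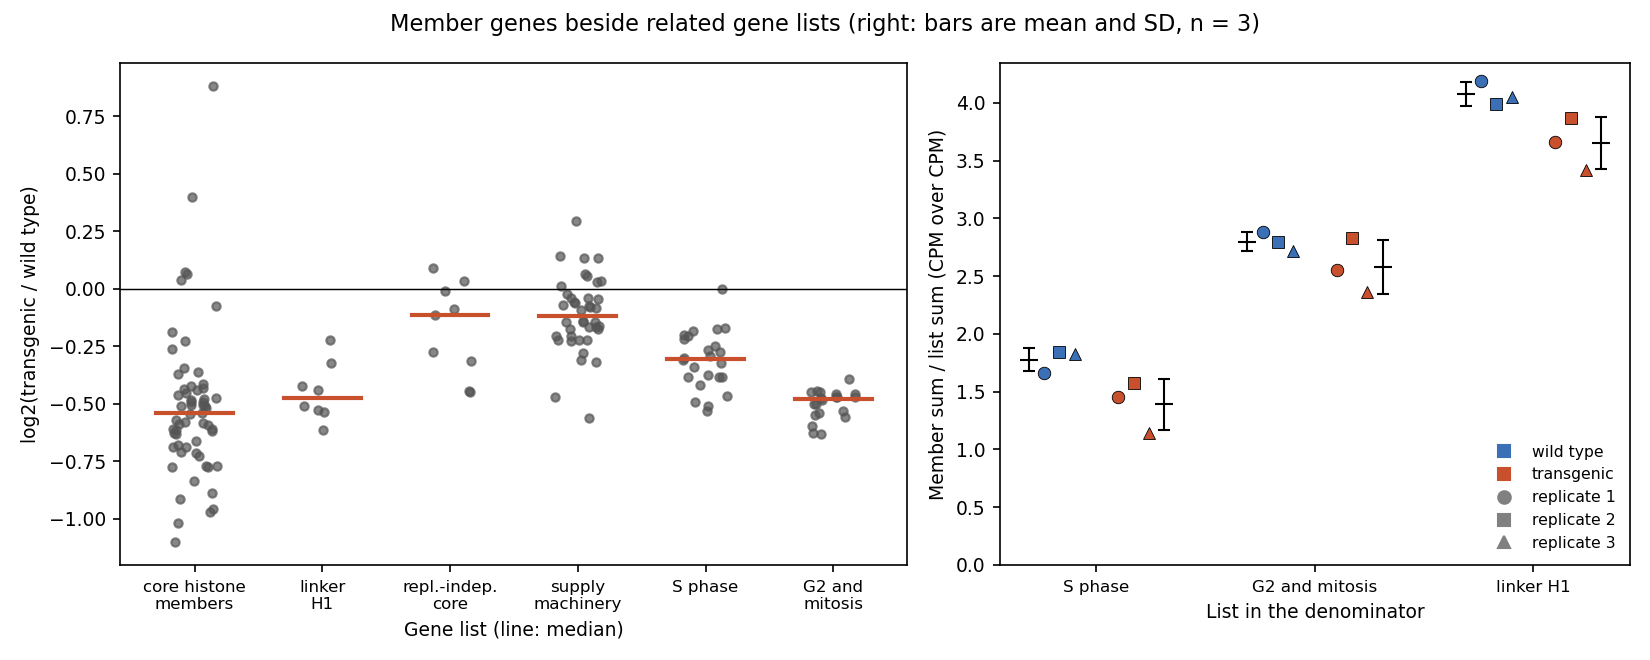
Left, log2 ratio of transgenic to wild-type level (y axis) of each tested gene of the core histone members and of 5 related lists (x axis), with a line at the median. Right, the summed CPM of the members divided by that of 3 lists in each library, with bars for the mean and SD of 3 libraries, where the ratios to S phase genes and to linker histones do not overlap between groups and those to genes of G2 and mitosis do.

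The genes outside all lists whose levels ran most like the core histone sum over the 6 libraries were found among 8855 genes of at least 10 CPM. Mtch2, a mitochondrial outer membrane protein, and Kars, a lysyl-tRNA synthetase, had a Pearson correlation of 0.995 each. Esco2, which acetylates cohesin in S phase, had 0.993, Isoc2a 0.991 and Cfl1, which severs actin filaments, 0.990. Esco2 stood at 42.1, 47.7 and 49.0 CPM in wild type and 32.7, 35.8 and 25.6 CPM in transgenic libraries (log2 fold change -0.56), while the other 4 had log2 fold changes from -0.25 to -0.15. These values describe 6 libraries that the genes and the histones share.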

How the data were processed

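RNA-seq of 6 libraries, 3 wild-type and 3 transgenic, was analysed from the authors' deposited transcript table. Per the submitters' processing notes, reads were aligned with TopHat2 to mm10 and quantified with Cuffdiff. No source names their versions or the strand setting. The deposited table holds estimated counts of fragments per transcript and library. It also holds the authors' deposited FPKM values. The authors' scaled fragments, a signal, and their test score were deposited too and not used. The authors' deposited comparison gives log2 fold changes and q-values per transcript.

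Rows marked as failed (466 rows of 197 genes, 0 of them members) were left out. Estimated counts were summed per symbol, rounded and tested in edgeR 4.0.16 (R 4.3.3; quasi-likelihood, TMM, filterByExpr with a minimum count of 10 and a minimum total of 15), with Benjamini-Hochberg adjustment over 14653 genes and a threshold of 0.05. The same fit was also run on simulated counts, whose levels and dispersions were taken from this fit. CPM values use TMM-scaled totals. The biological coefficient of variation was 19.5%. Cuffdiff divides fragments among near-identical copies, so the assignment of fragments is less certain for a single member with such copies than for a sum.

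Alternatives were DESeq2 1.42.0, limma 3.58.1 on log2 FPKM with pseudocounts of 0.1 or 0.5 (mean FPKM of 1 or more), other filters, scalings and dispersion priors, a replicate block, a covariate for Y-linked RNA, kept failed rows, summing per gene ID, and leaving out each library. FPKM sums and ratios to other lists were chosen after seeing the data.

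The members and lists were chosen with earlier results of these data known. Genes were named by rule: in each class the 3 highest in FPKM and the 3 with the smallest p, all tested Hist2, Hist3 and Hist4 members, all tested members above 0, up to 2 genes of smallest p per related list, up to 10 for histone supply with its fixed factors, and the 5 genes most like the histone sum. Hist1h2al, Hist1h2bl, Hist1h3e, Hist1h4h, Hist1h4n, the long transcripts, Il2ra, Rag1, Notch1, Notch3, Bcl11b, Cd4, Cd8a, Ccr9, Cd27, Arpp21, the near-0 chaperone genes, Hist1h2be and the head-to-head partners fall outside that rule and were chosen after their values were seen. The same holds for Cenpa, Hist1h4k and the genes named with the B cell, myeloid, NK cell and stroma sums. It also holds for Hinfp, Cd5, Cd6, Cd8b1, Cd28 and Slamf1.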

Additional observations from a re-analysis of the deposited data

How the results depend on the processing

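The median log2 fold change of the members stayed below 0 in all 20 alternative fits, and 0 members were called higher in any. The number called lower was 0 in edgeR as reported, 16 with DESeq2 (3.47% of all genes), 17 with no filter on low counts (0.485%), 1 with a robust dispersion prior (0.0955%), 25 with a covariate for Y-linked RNA (1.4%), 26 without the libraries with Y-linked RNA (1.32%) and 2 with failed loci kept (0.129%). Leaving out 1 library gave from 0 to 21, the highest without wild-type replicate 1, with a median from -0.68 to -0.40. The sum of all members ranged from -0.72 to -0.45 on the log2 scale over 14 settings, the H4 sum from -0.80 to -0.54, H3 from -0.74 to -0.45, H2B from -0.69 to -0.38 and H2A from -0.59 to -0.27. By cluster, Hist1 ranged from -0.76 to -0.47, Hist2 from -0.53 to -0.31, Hist3 from -0.52 to -0.27 and Hist4 from -0.67 to -0.24.

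Of 31 named members, 26 kept their direction in every setting, and the other 5 are those above 0. Hist1h2ai had -0.17 without the libraries with Y-linked RNA and -0.39 to 0.56 when 1 library was left out. Hist1h2bq had -0.37 and -0.27 by limma with pseudocounts of 0.1 and 0.5, and -1.89 to 1.43 when 1 library was left out. Hist2h2aa1 had -0.11 without the libraries with Y-linked RNA and -0.22 to 0.40 when 1 library was left out, where Hist1h4m had -0.10 to 0.93 and Hist2h2be -0.080 to 0.11. The cause was not tested.

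With the replicate number as a block, 3 members were called lower and Hist1h2bq had -0.66. Same-numbered libraries had correlated deviations of 0.1802, 0.138 and 0.00165, and different-numbered ones from -0.236 to 0.158. Wild-type replicates 1 and 2 ran closest to the transgenic library of their own number, while wild-type replicate 3 ran closest to transgenic replicate 2. The numbers were not taken as pairing in the main fit. However, replicate 2 of each group had the longest implied length for Hist1h4d, and Hist1h2al was near 0 in replicate 1 of each group. Whether same-numbered libraries shared a batch was not tested. Each group had 3 libraries, and 52 of 58 tested members found in GENCODE M21 shared a run of at least 100 identical bases with another member. How fragments were divided among such copies was not tested. The assignment of fragments is therefore less certain for those single members than for sums.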
